A study of Mus musculus with 9 samples.

Results

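The 10 genes described here are the 3 D cyclins (Ccnd1, Ccnd2 and Ccnd3), their partner kinases Cdk4 and Cdk6, and the CDK inhibitors Cdkn1a, Cdkn1b, Cdkn2a, Cdkn2b and Cdkn2c. They were taken by symbol: every probe set to which the array's annotation gives exactly 1 symbol, equal to 1 of these names, was kept, whatever its values. This gave 22 probe sets of the 22626 measured, or 10 of the 12393 genes that the annotation names in this way. Ccnd2 had 7 of them, Ccnd1 and Cdk4 had 3 each, Cdkn1a and Cdkn1b had 2 each, and each of the other 5 genes had 1.

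RNA of mouse sphere cultures was hybridized to 9 MOE430A arrays, 3 per group, each from a cell population described as independent. Tumorspheres (TMS) are free-floating spheres grown from mammary tumors of mice carrying a Neu (Erbb2) transgene driven by the MMTV promoter, which is active mainly in mammary epithelium. Mammospheres (MMS) are spheres grown in that same medium for stem cells, started from the mammary glands of virgin female FVB/N mice aged 6 to 8 weeks, without treatment. Mammospheres induced to differentiate (diffMMS) were MMS moved for 7 days into medium with serum, on a collagen substratum. Spheres of both origins were passaged every 7 days and harvested between passages 3 and 5, so diffMMS differ from MMS in serum, attachment and time together. The ages of the tumor-bearing mice are not given in the sources used here. The paper calls the FVB/N mice that received its primary tumor cells syngeneic, which gives FVB/N as the background of those tumors. The strain is not stated separately for the tumors behind these arrays.

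A D cyclin binds CDK4 or CDK6, and the active kinase phosphorylates the retinoblastoma protein, which then releases E2F transcription factors and lets a cell enter S phase. The INK4 inhibitors, encoded here by Cdkn2a, Cdkn2b and Cdkn2c, bind CDK4 and CDK6 and keep D cyclins off them, whereas the Cip/Kip inhibitors p21 (Cdkn1a) and p27 (Cdkn1b) act mainly on cyclin E and cyclin A complexes with CDK2. Cyclin D1 is the D cyclin best known in the mammary gland: mice without it fail to form normal lobules in pregnancy and resist tumors driven by Neu.

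Values are log2 of the deposited intensity plus 8.67, quantile normalized over the 9 arrays. Each difference is a log2 fold change on that scale, which understates the change of dim probe sets, and adjusted p values come from limma with Benjamini-Hochberg adjustment over all 22626 probe sets (threshold 0.05). A probe set's level depends on its probes, so that levels were compared between groups and not between probe sets. Where 3 values of a group are listed, they are those of replicates 1 to 3, whose numbers only name the arrays. All 3 comparisons share arrays, and those of TMS and of diffMMS with MMS share the 3 MMS arrays. The arrays hold bulk RNA, in which fewer cells of a type and less RNA per cell cannot be told apart. By their codes, the TMS arrays are not in 1 sequence with the other 6 arrays, so that an effect of such a difference in handling and the tumor origin cannot be told apart.

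The labelled cultures were set against marker genes. Of 7 luminal epithelial markers, 6 were higher in TMS than in MMS and their mean per array lay at 8.27 to 8.93 in TMS, at 5.78 to 5.95 in diffMMS and at 5.82 to 6.10 in MMS, where the median of all probe sets is 6.57. Krt5, a basal keratin, was at 6.54 to 6.71 in TMS, 6.86 to 6.99 in diffMMS and 6.66 to 6.80 in MMS, a little above or near that median. Krt14, its partner keratin, was at 5.83 to 8.03 in TMS, 5.53 to 5.61 in diffMMS and 5.55 to 5.60 in MMS. Over the 7 basal and myoepithelial markers, 4 were higher and none lower in diffMMS than in MMS, among them the contractile genes Acta2 (2.59) and Cnn1 (0.83), and none passed the test between TMS and MMS. The array means of that list were 6.39 to 6.57 in TMS, 6.87 to 6.97 in diffMMS and 6.27 to 6.35 in MMS. Fibroblast markers were bright in every group, with array means of 10.97 to 11.34 in TMS, 11.44 to 11.50 in diffMMS and 11.28 to 11.31 in MMS. Of 7 macrophage markers, 5 were higher in TMS than in MMS, among them Lyz2 (2.29) and Cd14 (1.41), and 4 were higher and 1 lower in diffMMS than in MMS, with array means of 7.12 to 7.53 in TMS, 6.57 to 7.05 in diffMMS and 6.49 to 6.59 in MMS. Of 5 endothelial markers, 4 were lower in TMS than in MMS and 1 was lower in diffMMS, with array means of 5.68 to 5.83 in TMS, 5.98 to 6.06 in diffMMS and 6.02 to 6.21 in MMS. The part of cell composition in the results that follow was not tested.

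Across the 22 probe sets, 3 were higher and 4 lower in TMS than in MMS, which is 31.8% of them against the 14.3% called over all probe sets (6.50% higher and 7.78% lower). Between diffMMS and MMS, 6 were higher and 8 lower, or 63.6% against 33.1% of all probe sets (16.1% and 17.0%), and this split became 4 higher and 9 lower both with the values as deposited and with arrays centred on their medians. Between TMS and diffMMS, 6 were higher and 3 lower, against 23.7% of all probe sets (12.2% and 11.4%), and the 3 lower ones became 6 without diffMMS replicate 1 and 2 without TMS replicate 2, TMS replicate 3 or diffMMS replicate 2. The groups did not overlap on 10, 15 and 11 of the 22 probe sets in these 3 comparisons, against 33.3%, 51.6% and 37.4% of all probe sets. The calls came from 4 genes in the first comparison (Ccnd1, Ccnd2, Cdk4 and Cdkn2c) and from 6 in the second (Ccnd1, Ccnd2, Cdk4, Cdkn1a, Cdkn1b and Cdkn2a). In the third they came from 5 (Ccnd1, Ccnd2, Cdk4, Cdkn1a and Cdkn2c). Each gene was counted here by any of its probe sets. By the brightest probe set alone, 13.4%, 34.0% and 24.9% of all genes were called in the 3 comparisons. In the first, Ccnd2 was called only on 1416123_at, a dim probe set. Several probe sets of 1 gene measure the same RNA and are no separate evidence. The change of widest span was that of Ccnd1, and Cdk6, Cdkn2b and Ccnd3 passed the test in none of the 3 comparisons.

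**Figure D1:**
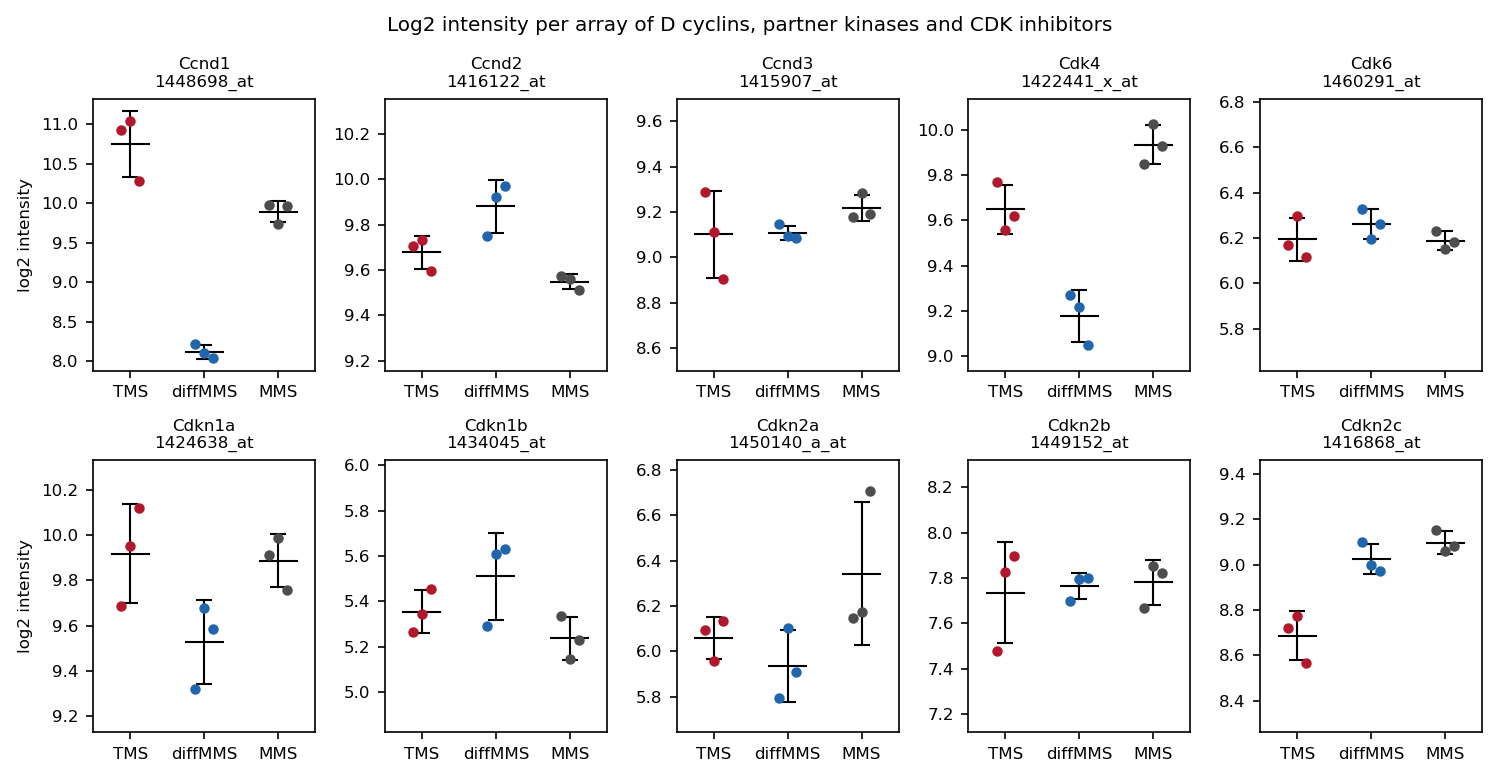
Log2 intensity of each gene's brightest probe set on every array, with TMS, diffMMS and MMS from left to right and a scale of its own in each panel. Points are single arrays, and the horizontal line and bar are the group mean and SD (n = 3). Ccnd1 is separated among all 3 groups, with diffMMS at 8.04 to 8.22, whereas the Cdk6 values of the 3 groups overlap.

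Ccnd1, which encodes cyclin D1, was higher in TMS than in MMS by 2 of its 3 probe sets and lower in diffMMS than in MMS by all 3. On the brightest probe set, 1448698_at, the 3 arrays read 10.93, 11.05 and 10.28 in TMS, 8.22, 8.11 and 8.04 in diffMMS, and 9.98, 9.74 and 9.96 in MMS. Every TMS array lay above every MMS array, and every diffMMS array lay below all the others. The TMS minus MMS difference was 0.86 (SE 0.162, 1.81-fold, adjusted p = 0.0043, limma), that of diffMMS minus MMS was -1.77 (SE 0.162, 3.42-fold lower, adjusted p = 6.6e-06), and that of TMS minus diffMMS was 2.63 (SE 0.162, 6.18-fold, adjusted p = 2.4e-07).

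On 1417419_at the arrays read 8.87, 9.34 and 8.85 in TMS, 7.00, 6.90 and 6.92 in diffMMS, and 8.49, 8.14 and 8.42 in MMS. The 3 groups were again apart, with differences of 0.67 for TMS minus MMS (adjusted p = 0.0050, limma), -1.41 for diffMMS minus MMS and 2.08 for TMS minus diffMMS. On 1417420_at the arrays read 9.71, 10.17 and 9.60 in TMS, 7.02, 7.22 and 6.99 in diffMMS, and 9.74, 9.43 and 9.45 in MMS. Here 1 MMS array lay above the lower 2 TMS arrays, and the TMS minus MMS difference of 0.29 (95% interval -0.02 to 0.59) did not pass the test (adjusted p = 0.21, limma) although it did with array weights. The differences with diffMMS on this probe set were -2.46 for diffMMS minus MMS and 2.75 for TMS minus diffMMS, and none of the Ccnd1 differences with diffMMS lost its call under any alternative tried.

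Spread within a group was wider for Ccnd1 in TMS than in the other cultures. The SD of 1448698_at was 0.415 in TMS, 0.0881 in diffMMS and 0.134 in MMS, and on that probe set TMS replicate 3, at 10.28, stood apart. On 1417420_at and 1417419_at the SD in TMS was 0.302 and 0.278. There TMS replicate 2 stood apart as the highest array, at 10.17 and 9.34. For all probe sets the median SD within a group was 0.0937 in TMS, 0.0879 in diffMMS and 0.0656 in MMS.

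Ccnd2, which encodes cyclin D2, passed the test as higher in diffMMS than in MMS on 4 of its 7 probe sets and as lower on none. The brightest, 1416122_at, read 9.71, 9.73 and 9.60 in TMS, 9.75, 9.92 and 9.97 in diffMMS, and 9.58, 9.56 and 9.51 in MMS. The groups did not overlap, and diffMMS exceeded MMS by 0.33 (SE 0.0776, 1.26-fold, adjusted p = 0.0065, limma). A second bright probe set, 1434745_at, read 9.57, 9.50 and 9.22 in TMS, 9.85, 9.88 and 9.80 in diffMMS, and 9.46, 9.47 and 9.47 in MMS, which gave 0.37 for diffMMS minus MMS (adjusted p = 0.0070) and -0.41 for TMS minus diffMMS (adjusted p = 0.0051). These 2 increases over MMS rest on the scaling of the arrays: with the values as deposited they were 0.09 (adjusted p = 0.48) and 0.14 (adjusted p = 0.17), and with arrays centred on their medians 0.04 and 0.09. The decrease of 1434745_at in TMS relative to diffMMS passed the test in both of those settings.

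The third, 1448229_s_at, whose suffix marks probes that match transcripts of more than 1 gene, read 7.26, 7.23 and 7.18 in TMS, 7.46, 7.72 and 7.63 in diffMMS, and 7.26, 6.80 and 7.09 in MMS. Its diffMMS minus MMS difference was 0.55 (SE 0.111, adjusted p = 0.0025, limma), and it passed the test also with the values as deposited (0.53, adjusted p = 0.0037). TMS were lower than diffMMS by this probe set (-0.38, adjusted p = 0.027), a call that was lost with the values as deposited (adjusted p = 0.057), after median centring (0.058) and when TMS replicate 2 or 3 or diffMMS replicate 2 or 3 was omitted (up to 0.098). The fourth, 1416123_at, was dim, at a mean percentile of 12.6 among all probe sets. It read 4.91, 4.93 and 5.04 in TMS, 4.89, 5.04 and 4.97 in diffMMS, and 4.72, 4.72 and 4.66 in MMS, and was the only Ccnd2 probe set that passed the test between TMS and MMS (0.26, adjusted p = 0.0072).

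The other 3 Ccnd2 probe sets passed the test in no comparison of the main analysis. Between diffMMS and MMS, 1455956_x_at differed by 0.20 (95% interval -0.07 to 0.47), 1430127_a_at by 0.05 (-0.17 to 0.27, but -0.16 with the values as deposited and -0.21 after median centring) and 1416124_at by 0.05 (-0.08 to 0.17). The last of these was also dim, at a percentile of 15.1. For 1430127_a_at, TMS minus MMS was -0.21 (adjusted p = 0.21, limma) and became a call after median centring (-0.40, adjusted p = 0.042), and TMS minus diffMMS was -0.26 (adjusted p = 0.085) and became one with array weights or without diffMMS replicate 1 (adjusted p down to 0.011). The 7 probe sets of Ccnd2 thus ranged from 0.05 to 0.55 in diffMMS minus MMS, where the 3 of Ccnd1 ranged from -2.46 to -1.41.

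Whether the 2 cyclins moved unequally was tested on their difference within each array, which does not change when all log2 values of an array are shifted by 1 constant. Log2 intensity of Ccnd1 (1448698_at) minus that of Ccnd2 (1416122_at) was 1.22, 1.32 and 0.68 in TMS, -1.53, -1.81 and -1.93 in diffMMS, and 0.41, 0.18 and 0.45 in MMS. Its size has no meaning between different probes, but its shift between groups does. The 3 groups did not overlap, and the shift was 0.73 for TMS minus MMS, -2.10 for diffMMS minus MMS and 2.83 for TMS minus diffMMS. The exact two-sided permutation test gave p = 0.1 for each, the smallest that 3 arrays against 3 allow, so that no such shift could reach 0.05 by this test. With the mean of all probe sets of each gene, an alternative chosen after seeing the data, the shifts were 0.55, -2.14 and 2.69 in the same order.

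**Figure D2:**
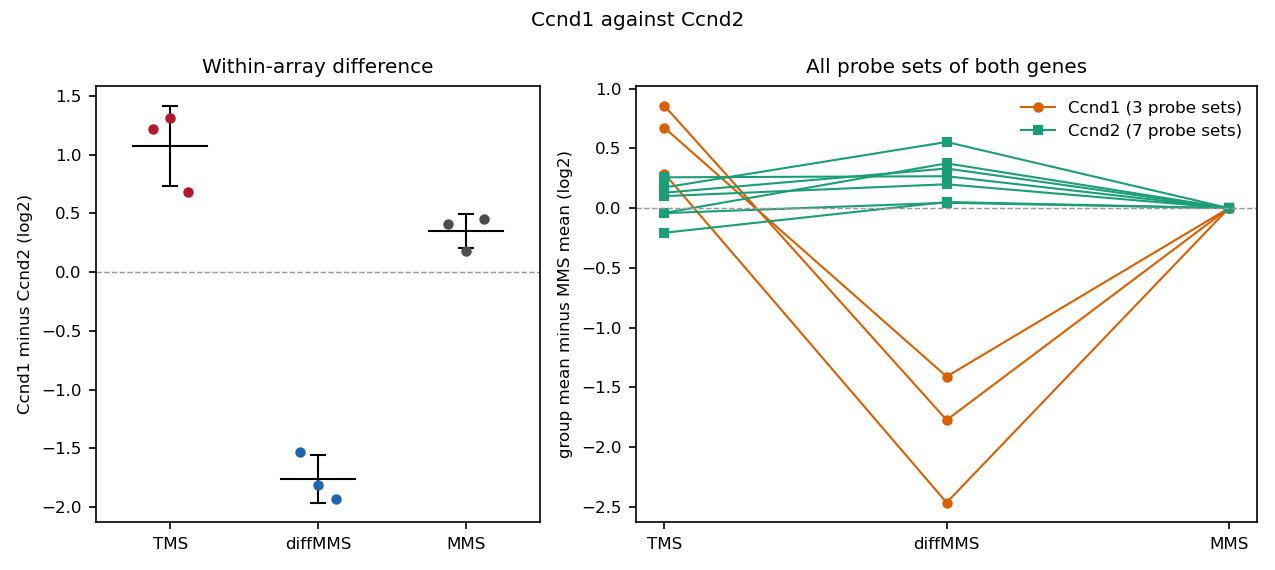
Left, log2 intensity of Ccnd1 minus Ccnd2 on each array in TMS, diffMMS and MMS, with the group mean and SD (n = 3). Right, group mean minus the MMS mean of all 3 Ccnd1 and 7 Ccnd2 probe sets: in diffMMS the Ccnd1 lines lie between -2.46 and -1.41 and the Ccnd2 lines between 0.05 and 0.55.

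Ccnd3, which encodes cyclin D3, had 1 probe set, which passed the test in no comparison. The arrays read 9.29, 9.11 and 8.90 in TMS, 9.14, 9.09 and 9.09 in diffMMS, and 9.18, 9.28 and 9.19 in MMS. The difference was -0.12 for TMS minus MMS (95% interval -0.32 to 0.09, adjusted p = 0.47, limma), -0.11 for diffMMS minus MMS (-0.31 to 0.09, adjusted p = 0.39) and -0.01 for TMS minus diffMMS (-0.21 to 0.20). With the values as deposited, both comparisons with MMS passed the test as lower, by -0.27 in TMS (adjusted p = 0.037) and -0.33 in diffMMS (adjusted p = 0.0068), and with arrays centred on their medians by -0.31 and -0.37.

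**Figure D3:**
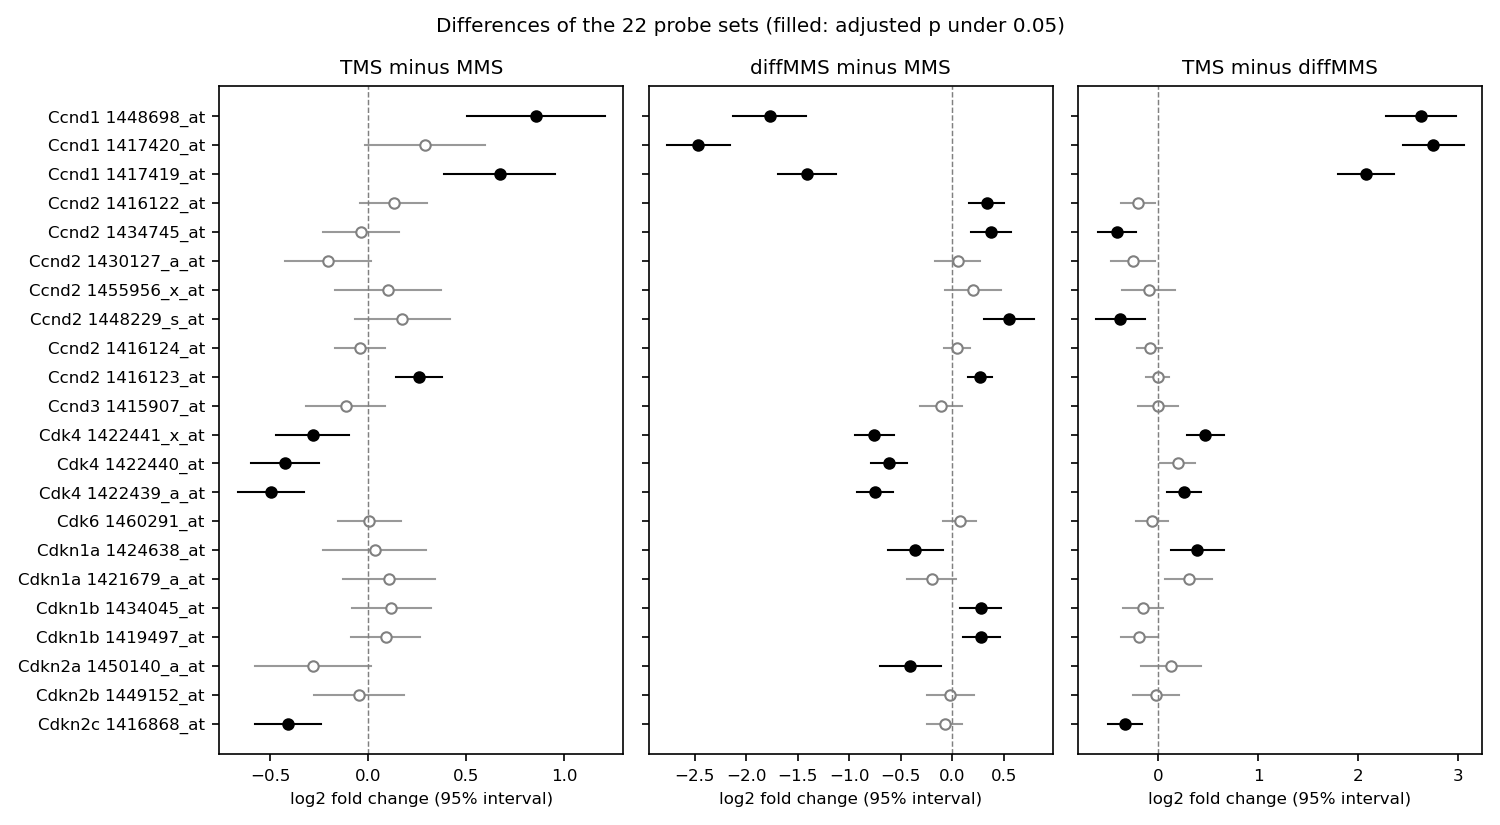
Log2 fold change with its 95% interval for all 22 probe sets in the 3 comparisons, each panel with its own scale, where filled points passed the test at an adjusted p under 0.05. The diffMMS minus MMS differences run from -2.46 (Ccnd1) to 0.55 (Ccnd2), and all 3 Cdk4 probe sets lie below 0 in both comparisons with MMS.

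Cdk4 encodes the catalytic partner shared by the 3 D cyclins and was lower than in MMS on all 3 of its probe sets, both in TMS and in diffMMS. The windows around the start sites of Cdk4 and of Cdkn2c, the 2 genes that were lower in TMS than in MMS by every probe set, are printed to show the promoter sequence of each gene, 250 bases before to 50 after the start (RefSeq, GRCm38.p6). Capitals mark matches on either strand to an E-box (CACGTG, the site bound by MYC with MAX), a GC box (GGGCGG, the site of SP1 family factors) or 4 E2F spellings (TTTGGCGC, TTTCCCGC, TTTGCCGC and TTTCGCGC), and neighbouring GC boxes can share a base. The Cdk4 window is chr10:127063285-127063584 on the plus strand and the Cdkn2c window, the first of 2 for that gene, is chr4:109666707-109667006 on the minus strand.
Cdk4: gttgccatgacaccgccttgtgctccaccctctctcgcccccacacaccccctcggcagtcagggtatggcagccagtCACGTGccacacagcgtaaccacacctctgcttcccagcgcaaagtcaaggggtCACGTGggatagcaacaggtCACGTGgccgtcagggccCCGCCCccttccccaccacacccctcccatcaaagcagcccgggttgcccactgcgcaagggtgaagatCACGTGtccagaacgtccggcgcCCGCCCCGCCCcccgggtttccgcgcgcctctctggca
Cdkn2c: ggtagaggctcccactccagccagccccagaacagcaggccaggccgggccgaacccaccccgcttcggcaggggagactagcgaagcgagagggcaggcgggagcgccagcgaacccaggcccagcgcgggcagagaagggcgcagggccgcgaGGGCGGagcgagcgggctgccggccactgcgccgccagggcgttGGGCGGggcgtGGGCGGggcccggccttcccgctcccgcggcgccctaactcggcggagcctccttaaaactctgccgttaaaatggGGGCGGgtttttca
The Cdk4 window holds 4 E-boxes and 3 GC boxes, and the Cdkn2c window holds 4 GC boxes and no E-box, whereas the second Cdkn2c window, which is not printed, holds 1 E-box and no GC box. An E-box occurs in 7.15% of the 32851 windows of this length and 4 or more in 0.0244% of them, whereas a GC box occurs in 35.7% and 4 or more in 5.49%. The count of 4 is the one found in the printed windows, so that these shares describe the windows and test nothing. No E2F spelling occurs in either window, as in all but 2.26% of windows. Such matches are letters in a window and no measured binding. Windows were matched for 8 of the 10 genes (12 windows), of which 3 held an E-box, 9 a GC box and 1 an E2F spelling, and Ccnd1 and Ccnd2 had no entry.

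On the probe set 1422439_a_at, Cdk4 read 8.39, 8.44 and 8.44 in TMS, 8.12, 8.23 and 8.16 in diffMMS, and 8.780, 8.983 and 8.997 in MMS. The 3 groups did not overlap, with diffMMS lowest and MMS highest. TMS minus MMS was -0.50 (SE 0.078, 1.41-fold lower, adjusted p = 0.0015, limma), diffMMS minus MMS was -0.75 (SE 0.078, 1.68-fold lower, adjusted p = 1.9e-05) and TMS minus diffMMS was 0.25 (SE 0.078, adjusted p = 0.035).

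The second probe set, 1422440_at, read 8.51, 8.53 and 8.72 in TMS, 8.30, 8.43 and 8.45 in diffMMS, and 9.02, 8.98 and 9.03 in MMS, with differences from MMS of -0.43 in TMS (adjusted p = 0.0040, limma) and -0.62 in diffMMS (adjusted p = 0.00011). The third, 1422441_x_at, whose suffix warns of possible cross-hybridization, read 9.77, 9.56 and 9.62 in TMS, 9.27, 9.22 and 9.05 in diffMMS, and 9.85, 10.02 and 9.93 in MMS. Its differences from MMS were -0.29 in TMS (adjusted p = 0.047) and -0.76 in diffMMS (adjusted p = 4.2e-05). Between TMS and diffMMS it differed by 0.47 (adjusted p = 0.0018), and 1422440_at by 0.19 (95% interval 0.02 to 0.36, adjusted p = 0.10).

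All 3 Cdk4 decreases in diffMMS kept their call under every alternative tried. In TMS, the -0.29 of 1422441_x_at lost it without TMS replicate 2 or 3, diffMMS replicate 2 or any 1 of the MMS replicates, and when only TMS and MMS were fitted (adjusted p up to 0.18), whereas the other 2 kept it. The 0.25 between TMS and diffMMS lost its call after median centring, in a fit of those 2 groups only and when TMS replicate 2 or 3 or diffMMS replicate 1 or 3 was omitted (adjusted p up to 0.093).

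Cdk6, which encodes the alternative partner kinase, read 6.17, 6.30 and 6.12 in TMS, 6.33, 6.19 and 6.26 in diffMMS, and 6.23, 6.15 and 6.18 in MMS on its 1 probe set. The groups overlapped, and the level lay at the 40.0th percentile of all probe sets. The difference was 0.01 for TMS minus MMS (95% interval -0.15 to 0.17), 0.07 for diffMMS minus MMS (-0.09 to 0.23) and -0.07 for TMS minus diffMMS (-0.23 to 0.09). A change of the size seen for Cdk4 in diffMMS (-0.62 to -0.76) lay outside the diffMMS interval of this probe set. The Cdk4 probe sets were brighter, at percentiles of 89.1 to 96.3, and the scale used here understates changes more on dimmer probe sets.

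Cdkn1a encodes p21, a Cip/Kip inhibitor and a classical target of p53. Its bright probe set, 1424638_at, read 9.68, 9.95 and 10.12 in TMS, 9.32, 9.68 and 9.59 in diffMMS, and 9.91, 9.99 and 9.76 in MMS. The diffMMS arrays were the lower ones and reached 9.68, just under the lowest TMS array. TMS and MMS differed by 0.03 (95% interval -0.23 to 0.30), diffMMS minus MMS was -0.36 (SE 0.121, adjusted p = 0.039, limma) and TMS minus diffMMS was 0.39 (SE 0.121, adjusted p = 0.035). Neither call held throughout. The decrease from MMS was lost without TMS replicate 2, diffMMS replicate 1 or 3, or MMS replicate 1 or 2 (adjusted p up to 0.15). The difference between TMS and diffMMS was lost under both other scalings, with those 2 groups alone, and without TMS replicate 2 or 3, diffMMS replicate 1 or 3, or MMS replicate 1 (adjusted p up to 0.13).

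The second Cdkn1a probe set, 1421679_a_at, read 7.41, 7.81 and 7.76 in TMS, 7.49, 7.34 and 7.23 in diffMMS, and 7.53, 7.60 and 7.53 in MMS. It did not pass the test, with -0.20 for diffMMS minus MMS (adjusted p = 0.17, limma) and 0.30 for TMS minus diffMMS (adjusted p = 0.060). The second of these did pass with the values as deposited (0.34, adjusted p = 0.044), with array weights, and without TMS replicate 1 or diffMMS replicate 1 (adjusted p down to 0.0048).

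Cdkn1b, which encodes p27, was dim on both probe sets, at percentiles of 20.7 and 16.7, and both read higher in diffMMS than in MMS. On 1434045_at the arrays read 5.26, 5.35 and 5.45 in TMS, 5.29, 5.61 and 5.63 in diffMMS, and 5.34, 5.15 and 5.23 in MMS, with 1 diffMMS array below the highest MMS array. On 1419497_at they read 5.13, 5.13 and 5.04 in TMS, 5.47, 5.29 and 5.11 in diffMMS, and 5.01, 4.93 and 5.09 in MMS. The diffMMS minus MMS differences were 0.27 (SE 0.0925, adjusted p = 0.040, limma) and 0.28 (SE 0.0809, adjusted p = 0.019). The first call was lost without a variance trend and without TMS replicate 2, diffMMS replicate 2 or 3, or MMS replicate 2 or 3 (adjusted p up to 0.15), and the second without diffMMS replicate 1 or MMS replicate 1 or 2 (adjusted p up to 0.083). TMS differed from MMS by 0.12 and 0.09, with neither passing the test.

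Among the INK4 genes, Cdkn2c was lower in TMS than in both other cultures. Cdkn2c encodes p18, and its probe set 1416868_at read 8.72, 8.77 and 8.57 in TMS, between 8.97 and 9.10 on the 3 diffMMS arrays, and 9.15, 9.06 and 9.08 in MMS. Every TMS array lay below every other array. TMS minus MMS was -0.41 (SE 0.0775, 1.33-fold lower, adjusted p = 0.0043, limma) and TMS minus diffMMS was -0.34 (SE 0.0775, 1.26-fold lower, adjusted p = 0.0076), and both calls held under every alternative tried. Between diffMMS and MMS the difference was -0.07 (95% interval -0.24 to 0.10, adjusted p = 0.50), but it passed the test as lower with the values as deposited (-0.29, adjusted p = 0.0071) and with centred arrays (-0.34, adjusted p = 0.0038).

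Cdkn2a encodes 2 proteins from separate first exons, the CDK4 and CDK6 inhibitor p16 and the MDM2-binding p19Arf, and its 1 probe set does not tell them apart here. It read 6.09, 5.96 and 6.13 in TMS, 5.79, 6.10 and 5.91 in diffMMS, and 6.15, 6.18 and 6.71 in MMS, with 1 MMS array standing above the rest. The differences from MMS were -0.28 in TMS (adjusted p = 0.21, limma) and -0.41 in diffMMS (SE 0.136, adjusted p = 0.038). The call in diffMMS was lost without that array (MMS replicate 3, which left -0.23 and an adjusted p of 0.13), without diffMMS replicate 1 or 3 (adjusted p up to 0.13), with the values as deposited (adjusted p = 0.070) and with centred arrays (0.051).

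Cdkn2b, which encodes p15, read 7.48, 7.83 and 7.90 in TMS, 7.70, 7.79 and 7.80 in diffMMS, and 7.67, 7.85 and 7.82 in MMS. The groups overlapped, and the differences were -0.05 for TMS minus MMS (95% interval -0.28 to 0.18), -0.02 for diffMMS minus MMS (-0.25 to 0.21) and -0.03 for TMS minus diffMMS (-0.26 to 0.20).

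**Figure D4:**
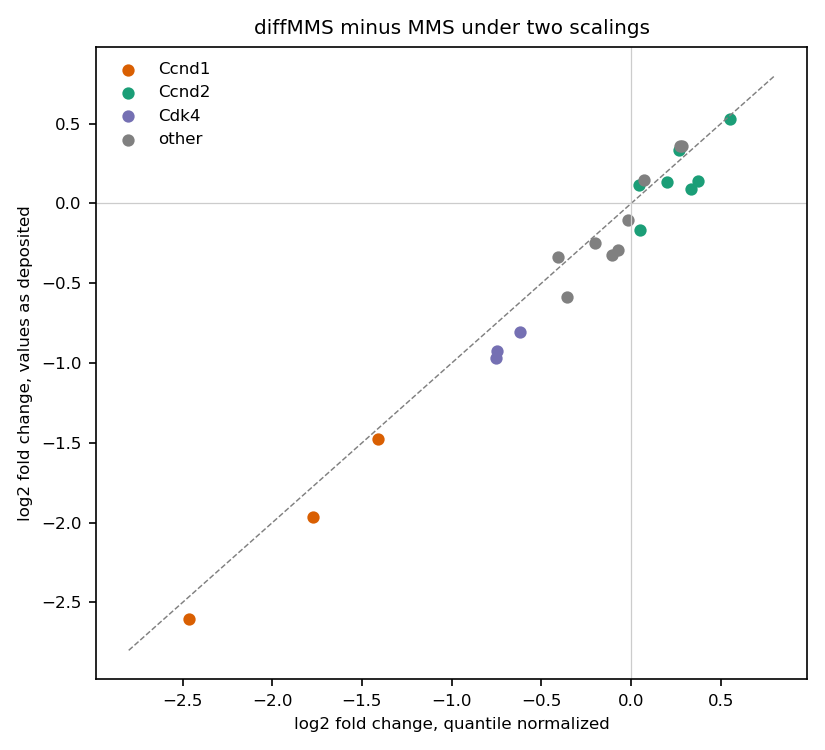
Log2 fold change of diffMMS minus MMS for the 22 probe sets with the quantile normalized values (x axis) and with the values as deposited (y axis), where the dashed line marks equal values. Points of Ccnd1 and Cdk4 stay far below 0 on both axes, whereas Ccnd2 1416122_at is at 0.33 on the x axis and 0.09 on the y axis.

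Genes around the D cyclins were described by 6 lists (88 genes, of which 80 were named by a probe set and the other 8 were not analysed here), each gene by its brightest probe set. Over the lists together, 3 genes were higher and 28 lower in TMS than in MMS, where 13.4% of all genes were called (6.22% higher and 7.14% lower). The 28 became 15 without MMS replicate 2 and 14 without MMS replicate 3, and the 3 became 6 without TMS replicate 3. Between diffMMS and MMS, 7 were higher and 38 lower, against 34.0% of all genes (17.9% and 16.2%), and the 7 became 3 without MMS replicate 2 or 3 and 4 without diffMMS replicate 1 or 3. Between TMS and diffMMS, 32 were higher and 8 lower, against 24.9% (12.3% and 12.6%), and the 8 became 3 to 5 without any 1 of the diffMMS replicates and 4 without TMS replicate 2.

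The E2F target genes, which encode replication and nucleotide synthesis proteins, showed this direction most evenly. Of 19 measured, 12 were lower and none higher in TMS than in MMS (median -0.30), 17 were lower and none higher in diffMMS than in MMS (median -0.96), and 15 were higher and none lower in TMS than in diffMMS (median 0.66), where the medians of all genes were 0.00, 0.05 and -0.03. Pcna, the sliding clamp of DNA polymerase, read 9.62, 9.61 and 9.69 in TMS, 8.30, 8.28 and 8.41 in diffMMS, and 10.01, 10.01 and 10.07 in MMS. The 3 groups lay apart, with TMS between the others, and the TMS minus MMS difference was -0.39 (adjusted p = 0.0032, limma) and that of diffMMS minus MMS -1.70 (adjusted p = 8.9e-09), the first being -0.60 after median centring. The helicase subunits Mcm6 and Mcm2 had the largest decreases of the list in TMS (-0.55 and -0.52), and Pcna and Mcm5 in diffMMS (-1.70 and -1.61). In TMS against MMS, the calls of Lig1, Mcm7, Pola1, Tk1 and Uhrf1 were each lost without certain single arrays (adjusted p up to 0.12, limma). The Mcm7 call was lost without TMS replicate 1 or 2, diffMMS replicate 2 or 3, or any 1 of the MMS replicates. Rpa1 and Rrm1, uncalled there, passed as lower after median centring, and Ung did so without diffMMS replicate 1. Tyms and Orc1 did not pass the test in any comparison, on dim probe sets. Over the 9 arrays these read 4.95 to 5.18 and 5.01 to 5.21, where the median of all probe sets is 6.57.

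Proliferation markers had the same order of groups. All 6 measured were lower than MMS in TMS (median -0.58) and in diffMMS (median -1.37), and their array means were 6.99 to 7.12 in TMS, 6.10 to 6.28 in diffMMS and 7.55 to 7.58 in MMS. Cdk4 shared this order on all 3 probe sets by group means, whereas Ccnd1 was highest in TMS. What part the share of dividing cells has in the values of the D cyclins and Cdk4 was not tested.

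Of the 16 genes for cyclin E, cyclin A, CDK2 and their regulators, 8 were lower and none higher in TMS than in MMS, and 8 were lower and 1 higher in diffMMS than in MMS. Cks2, a small CDK-binding subunit, differed from MMS by -0.53 in TMS (adjusted p = 0.013, limma) and by -1.70 in diffMMS (adjusted p = 9.3e-07). Cdc25b, a CDK-activating phosphatase, was lower in TMS (-0.51), and Ccna2, cyclin A2, was lower in diffMMS (-1.16). The 1 gene that was higher in diffMMS was Ccnh, the cyclin of the CDK-activating kinase (0.29, adjusted p = 0.017). Between TMS and diffMMS, 4 of the list were higher, with Cks2 (1.17) and Ccna2 (0.68) the largest, and 3 were lower, with Ccnh (-0.48) and Cdk7 (-0.34) the largest. The Cks2 call in TMS was lost without MMS replicate 2 or 3 (adjusted p up to 0.062), the Ccnh call in diffMMS under both other scalings and without diffMMS replicate 3 or MMS replicate 2 or 3 (up to 0.20), and that of Cdk7 without diffMMS replicate 3 (0.052). Also in TMS against MMS, Cks1b lost its call without TMS replicate 1 or any 1 of the MMS replicates (adjusted p up to 0.13, limma). Ccna2 lost it there without MMS replicate 1 or 3 (up to 0.075). Cdc25a lost it there with the values as deposited and without MMS replicate 1 or 2 (up to 0.061). The Wee1 call in diffMMS against MMS was lost without diffMMS replicate 1 or 3 or MMS replicate 2 or 3 (up to 0.096). The cyclin E genes Ccne1 and Ccne2 differed from MMS by -0.14 (adjusted p = 0.22) and -0.23 (adjusted p = 0.0052) in TMS. In diffMMS they differed from MMS by -0.07 (adjusted p = 0.46, limma) and -0.35 (adjusted p = 9.1e-05). The Ccne2 probe set was dim, at the 4.9th percentile of all probe sets.

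Of 10 pocket protein and E2F genes, 3 were lower in TMS and 3 in diffMMS than in MMS, and none was higher. Of all genes, 13.4% were called between TMS and MMS (7.14% lower) and 34.0% between diffMMS and MMS (16.2% lower). Rbl1, which encodes the pocket protein p107, was among the lower genes of the list in both, at -0.41 in TMS (adjusted p = 0.0095, limma) and -1.05 in diffMMS (adjusted p = 3.5e-06). In TMS the others were E2f6, a repressive family member (-0.33), and Tfdp1, the dimer partner of E2Fs (-0.30). In diffMMS they were E2f8 (-0.63), another repressor, and E2f1 (-0.30), an activator. Rb1, the retinoblastoma gene itself, differed by 0.65 between TMS and MMS without passing the test (adjusted p = 0.059) and was higher in TMS than in diffMMS by 0.71 (adjusted p = 0.027), on a dim probe set at the 22.4th percentile. It read 5.56, 5.59 and 6.59 in TMS, so that 1 array stood apart: without it (TMS replicate 3) the 2 differences were 0.31 (adjusted p = 0.016) and 0.38 (adjusted p = 0.0042). The first also passed the test under both other scalings and without TMS replicate 1 or 2, and the second was lost without diffMMS replicate 1 or 3 (adjusted p up to 0.091). E2f1 and Rbl1 were the other 2 that were higher in TMS than in diffMMS (0.30 and 0.64). The call of E2f6 in TMS was lost without TMS replicate 2 or MMS replicate 2 or 3 (adjusted p up to 0.092), and that of Tfdp1 without TMS replicate 1 or 3 or MMS replicate 2 or 3 (up to 0.12). In diffMMS against MMS, Tfdp1 passed as lower with the values as deposited (-0.36, adjusted p = 0.011, limma) and after median centring (-0.40, adjusted p = 0.0081). E2f6 passed as lower there after median centring (-0.26, adjusted p = 0.035, limma). The call of E2f1 in diffMMS against MMS was lost without diffMMS replicate 1 or 2 or MMS replicate 1 or 3 (up to 0.094), and against TMS without TMS or diffMMS replicate 1 or 2 (up to 0.12). E2f3, E2f4, E2f5 and Rbl2 passed the test in no comparison of the main analysis.

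The 2 other CDK inhibitor genes measured were Cdkn2d, the fourth INK4 gene, and Cdkn1c, the third of the Cip/Kip genes. Cdkn2d was lower in diffMMS than in MMS by -0.87 (adjusted p = 5.2e-05, limma) and higher in TMS than in diffMMS by 0.56 (adjusted p = 0.0017), and it differed by -0.31 between TMS and MMS (adjusted p = 0.066), which passed the test with the values as deposited (adjusted p = 0.039), after median centring (0.025) and without diffMMS replicate 1 or 2. Cdkn1c differed by -0.61 between TMS and MMS (adjusted p = 0.094) and passed the test in no comparison of the main analysis. After median centring (-0.69) or without TMS replicate 1 (-0.87, adjusted p = 0.012) it passed as lower in TMS than in MMS, and without that array also as lower than in diffMMS (-0.58, adjusted p = 0.043).

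Among 15 regulators of D cyclin level and of the Cdkn genes, 2 were higher and 2 lower in TMS than in MMS, and 2 were higher and 5 lower in diffMMS than in MMS. Id2, a dominant-negative helix-loop-helix factor, was higher in TMS than in MMS by 0.72 (adjusted p = 0.0034, limma) and lower in diffMMS than in MMS by -1.10 (adjusted p = 5.9e-05), which are the directions of Ccnd1. Tbx2, a repressor of Cdkn2a and Cdkn1a, was lower than in MMS in both TMS (-0.70, adjusted p = 0.032) and diffMMS (-1.35, adjusted p = 0.00025), and the related Tbx3 was higher in TMS (0.62, adjusted p = 0.017). The other call in TMS was Cul4a, a ubiquitin ligase scaffold (-0.34, adjusted p = 0.0497). Tbx2 read 6.37, 6.58 and 5.68 in TMS, and its difference from MMS was -0.43 (adjusted p = 0.041) without TMS replicate 3 and lost its call without diffMMS replicate 3 or any 1 of the MMS replicates (adjusted p up to 0.11). The Tbx3 call was lost without TMS replicate 1 or 2 or MMS replicate 2 or 3 (up to 0.079). The Cul4a call ended with the values as deposited and without any 1 array other than TMS replicate 3 (up to 0.18), and its value was -0.21 without MMS replicate 3. In diffMMS the polycomb gene Cbx7 (0.27) and the ubiquitin ligase gene Fbxw7 (0.22) were the 2 higher ones, of which the first was lost without MMS replicate 2 (0.069) and the second without TMS replicate 2, diffMMS replicate 1 or 3 or any 1 of the MMS replicates (up to 0.18). Myc differed by 0.24 between TMS and MMS (adjusted p = 0.14, but 0.039 without TMS replicate 3) and by 0.03 between diffMMS and MMS (adjusted p = 0.86). Between TMS and diffMMS, 5 regulators were higher and 1 lower, from Id2 (1.83) and Tbx2 (0.65) to Fbxo4 (-0.22), which encodes an F-box protein that binds cyclin D1. In that comparison Tbx2 lost its call with the values as deposited and without TMS replicate 1 or 2 or diffMMS replicate 2 or 3 (up to 0.12), and Fbxo4 without TMS replicate 2 or any 1 of the diffMMS and MMS replicates (up to 0.13).

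The 18 measured p53 target and regulator genes were set beside Cdkn1a. In TMS relative to MMS, 1 was higher (Perp, a desmosomal protein, 0.54) and 3 were lower, with Zmat3 (-0.56) and Sesn1 (-0.34) the largest. In diffMMS relative to MMS, 4 were higher, led by Plk2 (1.11) and Btg2 (0.44), and 4 lower, led by Pmaip1 (-1.08), which encodes the death-promoting protein NOXA, and Ei24 (-0.92). Between TMS and diffMMS, 4 were higher, led by Ei24 (0.60) and Mdm2 (0.58), the gene of the p53 ubiquitin ligase, and 4 lower, led by Plk2 (-0.79) and Btg2 (-0.38). The probe sets of Perp and Pmaip1 were dim, at 4.46 to 5.35 and 4.76 to 6.33 over all arrays, under the median of 6.57. The Sesn1 call in TMS was lost without TMS replicate 2 or MMS replicate 2 or 3 (adjusted p up to 0.095), the Plk2 call between TMS and diffMMS without diffMMS replicate 2 (0.051), and the Btg2 call there after median centring and without TMS replicate 2 or diffMMS replicate 2 or 3 (up to 0.093). With all 9 arrays the list moved in no single direction, with medians of -0.10, -0.09 and -0.04 in the 3 comparisons, and Cdkn1a lay between its extremes in each. Without TMS replicate 3, Pmaip1 (-0.83), Gadd45a (-0.77), Trp53inp1 (-0.45), Mdm2 (-0.28) and Aen (-0.24) also passed as lower in TMS than in MMS. Tnfrsf10b (0.30) then passed as higher (adjusted p up to 0.046 for these genes, limma). In TMS, Gadd45a read 7.15, 7.11 and 8.63, and Pmaip1 read 4.98, 5.26 and 6.33.

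**Figure D5:**
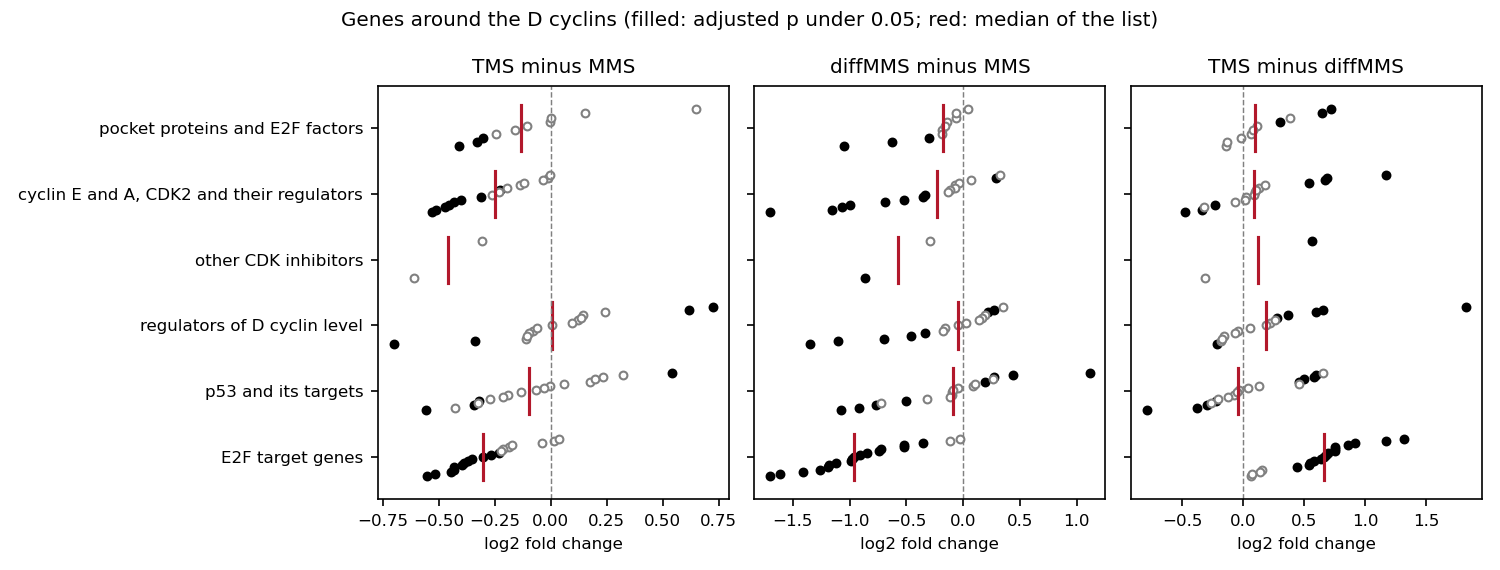
Log2 fold change of each measured gene of the 6 lists in the 3 comparisons, each panel with its own scale. Filled points passed the test at an adjusted p under 0.05 and red bars mark list medians: the E2F target median is -0.30 for TMS minus MMS, -0.96 for diffMMS minus MMS and 0.66 for TMS minus diffMMS.

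For the 5 genes whose brightest probe set passed the moderated F test over the 3 groups (36.7% of all probe sets did), the genes with the most alike pattern were ranked by Pearson's r over the 9 arrays, among the 577 genes with an SD of at least 0.5 (576 for Ccnd1, which is one of them itself). Arrays of 1 group share a mean, so that with 3 groups a high r describes the order of groups more than the arrays. Ccnd1 was most like Slc2a3, a glucose transporter (r = 0.977), Slco2a1, a prostaglandin transporter (0.976), and Crabp2, a retinoic acid binding protein (0.973). Cdk4 was most like Itih5 (0.991), Rerg (0.983) and Prkcb (0.981), and Ccnd2 was most like the chemokine gene Ccl9 (0.977), Hs6st2 (0.940) and Ypel3 (0.937). The probe set used for Cdk4 was 1422441_x_at, whose suffix warns of possible cross-hybridization. For Ccnd2 it was 1416122_at, whose increase in diffMMS over MMS rests on the scaling of the arrays. Cdkn2c came closest to Adgrd1 (0.923), Itm2a (0.897) and Cavin1 (0.871), and Cdkn1a to the oxidative stress genes Nqo1 (0.888) and Txnrd1 (0.884) and to Noct (0.883).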

How the data were processed

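The authors deposited probe set intensity values on a linear scale from MOE430A arrays, already summarised and scaled; the paper names GeneSpring, and the summary and scaling methods are not given in the sources used here. Array medians were 84.0 to 88.6, and the number of arrays limits the precision. To all values 8.67 (10% of their median) was added before log2. Quartiles then differed between arrays by up to 0.134, above the limit of 0.1, so quantile normalization followed. Of 22690 probe sets, 64 controls were left out of the tests. limma 3.58.1 (R 4.3.3) then fitted a mean per group to the 9 arrays by lmFit and eBayes with trend, with 6 residual degrees of freedom, after a test on simulated data. No probe set was left out as dim. Probe sets took gene symbols from the platform annotation: 20380 carried 1 symbol, 691 several and 1555 none.

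Every probe set of each of the 10 genes is named, and from each other list the 2 largest rises and falls per comparison among genes past the threshold, with the other CDK inhibitors, pocket proteins and E2F factors in full. A few further genes (Ccne1, Ccne2, Tyms, Orc1, Myc and the cell type markers) were named after their values were seen. The genes and lists were chosen with earlier results of these data known. Alternatives covered scaling, pseudocounts of 1 and 32, a filter on probe sets below the 25th percentile, the variance model, array weights, the groups fitted and each array left out. Replicates were numbered in accession order, for naming alone. Figures were drawn with matplotlib 3.10.9.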

Additional observations from a re-analysis of the deposited data

How the results depend on the processing

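Of 66 differences (22 probe sets in 3 comparisons), 30 passed the test, and 20 of these kept direction and call under every alternative run (up to 18 each). The other 10 lost the call under at least 1, 10 differences without a call gained one, and 14 without a call changed sign; except where stated, the causes were not tested. No paired analysis was possible because the labels give no replicate numbers, only array codes that pair nothing across groups. The scaling of bright probe sets and the number of arrays (3 per group) limit these results, and so do dim probe sets, both of Cdkn1b and 2 of Ccnd2, since a pseudocount pulls their differences towards 0.

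With the values as deposited, TMS minus MMS changed sign to -0.046 for Ccnd2 1416122_at and to -0.13 for Cdkn1a 1424638_at, diffMMS minus MMS to -0.16 for Ccnd2 1430127_a_at, and TMS minus diffMMS to 0.058 for Ccnd3 1415907_at and to 0.037 for Cdkn2b 1449152_at. With arrays centred on the median the same 5 values were -0.091, -0.18, -0.21, 0.060 and 0.039. Array weights turned Ccnd2 1434745_at to 0.0063 for TMS minus MMS and Cdkn2b to 0.00026 for diffMMS minus MMS, and, for TMS minus diffMMS, Ccnd2 1455956_x_at to 0.072, Ccnd3 to 0.019 and Cdk6 1460291_at to 0.012. None of these passed the test in either setting.

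Leaving out 1 array at a time gave, for TMS minus MMS, -0.11 to 0.066 for Ccnd2 1434745_at, -0.033 to 0.24 for Ccnd2 1455956_x_at, -0.047 to 0.045 for Cdk6, -0.068 to 0.15 for Cdkn1a 1424638_at and -0.13 to 0.081 for Cdkn2b. For diffMMS minus MMS it gave -0.031 to 0.17 for Ccnd2 1430127_a_at, -0.0096 to 0.089 for Ccnd2 1416124_at and -0.074 to 0.018 for Cdkn2b, and for TMS minus diffMMS -0.23 to 0.040 for Ccnd2 1455956_x_at, -0.049 to 0.028 for Ccnd2 1416123_at, -0.10 to 0.093 for Ccnd3 and -0.11 to 0.099 for Cdkn2b.

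The count of members higher in diffMMS than in MMS was 3 in place of 6 without dim probe sets, which leaves fewer of them to test. The count lower in TMS than in diffMMS was 6 in place of 3 with array weights and 2 to 6 with 1 array left out, the 6 without diffMMS replicate 1. For the 6 pathway lists, genes higher in TMS than in MMS numbered 3 in the main analysis, 5 with the values as deposited, 7 with array weights and 2 to 6 with 1 array left out, the 6 without TMS replicate 3. Those lower in TMS than in MMS numbered 28, and 14 to 33 with 1 array left out: 15 without MMS replicate 2 and 14 without MMS replicate 3. Those higher in diffMMS than in MMS numbered 7, and 3 to 10 with 1 array left out: 3 without MMS replicate 2 or 3 and 4 without diffMMS replicate 1 or 3. Those lower in TMS than in diffMMS numbered 8, 4 when only these groups were fitted, and 3 to 10 with 1 array left out: 4 without TMS replicate 2, 5 without diffMMS replicate 1 and 3 without diffMMS replicate 2 or 3. Of all probe sets, 1471 were higher and 1760 lower in TMS than in MMS, and 2730 and 3130 with array weights, 865 and 998 without MMS replicate 2, 892 and 1015 without MMS replicate 3, and 1225 and 2366 with centred arrays. In diffMMS against MMS, 3643 were higher and 3846 lower, and 2903 and 4673 with centred arrays, with 2293 and 2319 higher ones without MMS replicate 2 and without MMS replicate 3.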
